A study of Rattus norvegicus with 12 samples.

Results

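The blood vessels of the brain are lined by endothelial cells and wrapped by mural cells, which are pericytes on capillaries and smooth muscle cells on arteries. Here 36 genes that mark these cells were followed in RNA-seq of rat cerebral cortex: 21 of endothelial identity, 5 of barrier transport or enriched in barrier endothelium, 6 of pericytes and 4 of smooth muscle. They were taken by gene symbol from a table of 17268 genes. 35 of the 36 were analysed, and Robo4 was not analysed here.

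The blood-brain barrier is made by brain endothelial cells that are joined by tight junctions, carry nutrients across on transporters such as the glucose carrier Slc2a1, pump drugs back out through carriers such as Abcg2, and keep vesicle traffic low, for which Mfsd2a is needed. VEGF acts on endothelial cells through the receptor tyrosine kinase Kdr and the related VEGF-C through Flt4, and angiopoietins act through Tek, whose partner is Tie1. Pericytes depend on Pdgfrb, the receptor for endothelial PDGF-B, and share the Notch3 receptor with smooth muscle cells, which contract with Acta2 and Myh11. Ischemic stroke is known to open the barrier, and late thrombolysis can add to the damage.

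All rats were adult male Sprague Dawley animals, with 3 rats and 3 libraries in each of 4 groups. Sham rats were operated on but received no clot. In Model rats a blood clot was placed in the middle cerebral artery to cause an embolic stroke. The rt-PA rats had the same stroke and recombinant tissue plasminogen activator, which dissolves clots, at 6 h. The rt-PA+Acu rats had the stroke, rt-PA at 6 h and, before it, XingNaoKaiQiao needle stimulation at 2 h at the Shuigou (GV26) and Neiguan (PC6) points. No group had acupuncture without rt-PA, so the effect of acupuncture on the stroke alone was not measured.

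Libraries held 11678450 to 13616935 counts, so that 3 counts stood at 0.208 to 0.262 CPM. CPM are counts scaled to a common library total, here with factors from the trimmed mean of M-values (TMM), and a library is named by its group and number. The labelled tissue was checked on 7 cortical neuron markers, which summed to 7022 to 7712 CPM in Sham, 4427 to 4884 CPM in Model and 3323 to 4411 CPM in rt-PA. In rt-PA+Acu they summed to 7056, 7430 and 4414 CPM, so that rt-PA+Acu 3 stood apart, near the rt-PA libraries. Of these 7 markers 6 were lower in Model than in Sham and 6 rose from rt-PA to rt-PA+Acu. The 8 striatal neuron markers summed to 300.2, 681 and 542 CPM in Sham and to 128 to 180 CPM in all other libraries. 8 monocyte and macrophage markers summed to 66.4 to 91.3 CPM in Sham (Ms4a7 at 0 in all 3), 171 to 250.3 CPM in Model, 249.6 to 465 CPM in rt-PA and 47.1 to 62.0 CPM in rt-PA+Acu. 8 neutrophil markers summed to 7.27 to 11.8 CPM in Sham, 4.96 to 16.9 CPM in Model, 14.7 to 81.4 CPM in rt-PA and 3.67 to 5.23 CPM in rt-PA+Acu, with Mpo, Elane and Ltf at 0 throughout. Model 3 stood apart among the Model libraries: the median log2 difference of the 20 endothelial identity genes from their Sham mean was 0.07 in Model 1, 0.01 in Model 2 and 0.95 in Model 3.

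**Figure D1:**
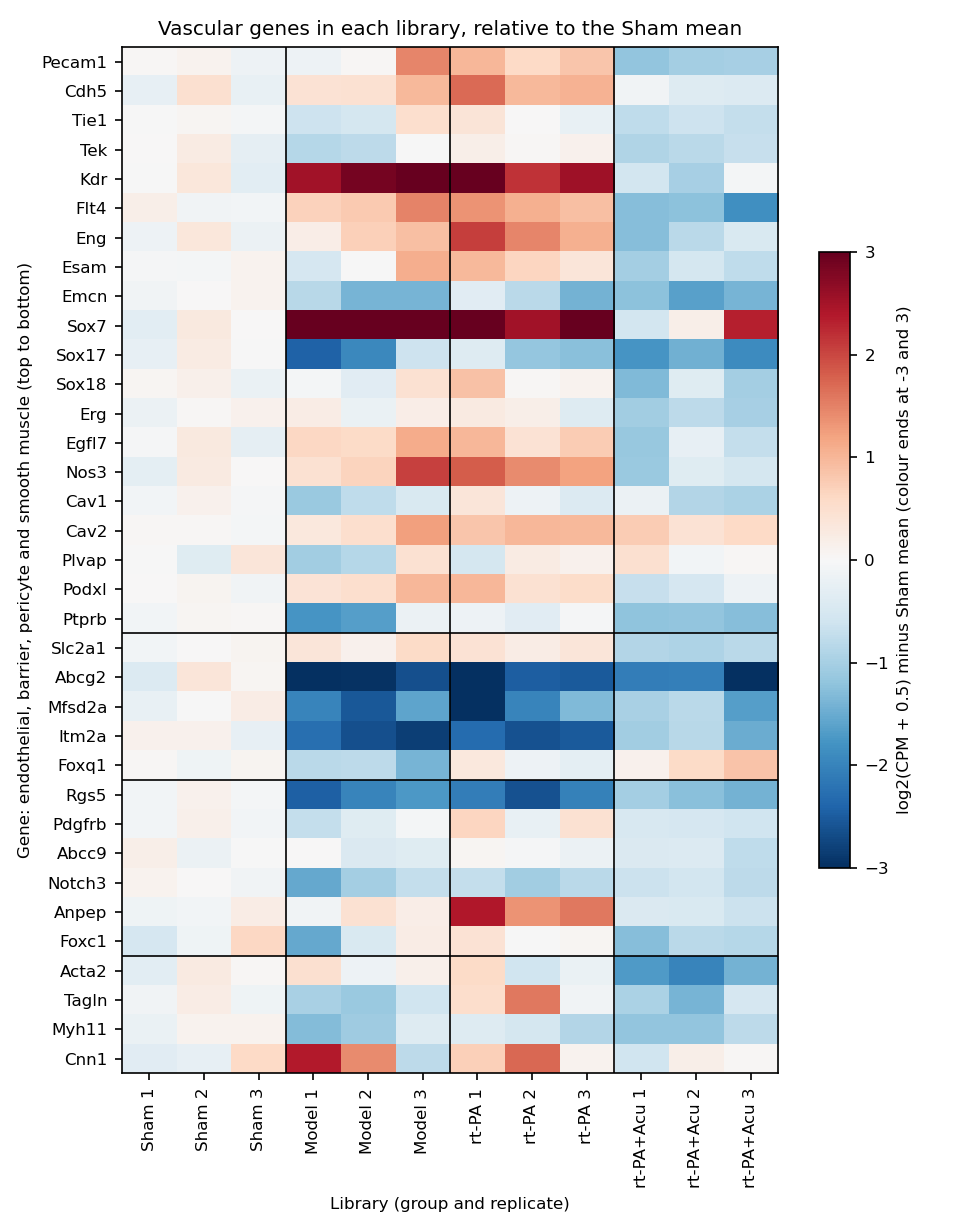
Colours show log2(CPM + 0.5) of each of 35 vascular genes (rows) in each of 12 libraries (columns) minus the gene's mean over the 3 Sham libraries, on a scale cut at -3 and 3. Horizontal lines part the endothelial identity, barrier, pericyte and smooth muscle genes. Kdr and Sox7 are red in all Model and rt-PA libraries, Abcg2, Mfsd2a, Itm2a and Rgs5 are blue there, and most rows are blue in rt-PA+Acu.

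Embolic stroke was first set against sham surgery. Endothelial genes moved in both directions, led by a rise of the VEGF receptor Kdr and the transcription factor Sox7, while 4 of the 5 barrier genes and 4 of the 10 mural genes fell. Of 35 genes tested, 9 (25.7%) were higher in Model, near the 27.3% of all 12884 genes. 11 (31.4%) were lower, somewhat above the 26.6% of all genes. A gene passed at an adjusted p under 0.05 by edgeR's quasi-likelihood test, adjusted over all genes by the Benjamini-Hochberg method, and this adjusted p is given throughout. Among endothelial identity genes 8 of 20 were higher and 3 lower, with a median log2 fold change of 0.49 against 0.014 over all genes. This median leaned on Model 3: the median log2 difference from Sham was 0.07 in Model 1, 0.01 in Model 2 and 0.95 in Model 3. Median log2 fold changes were -2.04 for the barrier genes, -0.47 for the pericyte genes and -0.35 for the smooth muscle genes. The cortical neuron markers moved with these changes, with 6 of 7 lower in Model, a median of -0.87 and Neurod6 lowest at -3.21, and their part in the vascular values was not tested. Striatal neuron markers were lower than Sham in every stroke group. These were 8 of 8 in Model (median -2.98), 7 of 8 in rt-PA (-3.03) and 6 of 8 in rt-PA+Acu (-1.98). Their part in the vascular values of any stroke group against Sham was not tested. In tissue RNA, fewer cells of a type and less RNA per cell cannot be told apart. Without Model 3, Tie1 (log2 fold change -0.58), Tek (-0.84), Ptprb (-1.71), Plvap (-1.56) and Pdgfrb (-0.53) also passed as lower and Cnn1 (2.54) as higher, while Eng no longer passed. Without Sham 1 the count of higher genes was 5.

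Adding rt-PA to the stroke was the second comparison. No vascular gene passed: 0 of 35 in edgeR's quasi-likelihood test, beside 0% of all 12941 genes. At an unadjusted p under 0.05 the count was 8 of 35, beside 9.92% of all genes. DESeq2 passed 3 of the 35, beside 1.66% of all genes it tested. These were the TGF-beta coreceptor Eng, the aminopeptidase Anpep and the actin-binding protein Tagln, all 3 higher in rt-PA than in every Model library. Their log2 fold changes in edgeR were 0.96 ± 0.27 (adjusted p = 0.362) for Eng, 1.73 ± 0.32 (adjusted p = 0.245) for Anpep and 1.75 ± 0.41 (adjusted p = 0.32) for Tagln. Of the marker lists of other cells, 7 of 7 fibroblast markers tested had an unadjusted p under 0.05, with a median log2 fold change of 2.11, and none passed by adjusted p. The same held for 4 of 7 monocyte and macrophage markers (median 1.12) and 3 of 5 neutrophil markers (median 1.79). Myeloid cells make Eng and Anpep too and fibroblasts make Tagln. In rt-PA 1, 2 and 3 Tagln was at 37.4, 78.6 and 23.8 CPM, while the fibroblast markers summed to 477, 144 and 356 CPM. The highest Tagln level and the lowest fibroblast sum of this group were both in rt-PA 2. Pdgfra alone held 52.0 to 122 CPM of this sum in rt-PA. The part of these cells in the values was not tested. Without Model 3, the phosphatase Ptprb passed as higher in rt-PA (log2 fold change 1.53, adjusted p = 0.039).

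The rats given acupuncture and rt-PA were then set against those given rt-PA. Most vascular genes were lower: 22 of 34 tested fell, beside 17.7% of all 12999 genes, and 2 rose, beside 17% of all genes. The pair that rose were Itm2a, a membrane protein enriched in brain endothelium, and Rgs5, a pericyte regulator of G protein signalling. Of the endothelial identity genes 15 of 20 fell, with a median log2 fold change of -1.23 against -0.0027 over all genes. Of the pericyte genes 4 of 6 fell, and of the smooth muscle genes 2 of 3 tested fell. The medians were 0.68 for the barrier genes, -0.69 for the pericyte genes and -1.75 for the smooth muscle genes. The monocyte and neutrophil marker sums, each below every rt-PA library in all 3 rt-PA+Acu libraries, moved the same way. Of 7 monocyte and macrophage markers tested 6 fell, while Adgre1 was at 1.19 (adjusted p = 0.0565). The cortical neuron markers moved the opposite way, with 6 of 7 higher, a median of 0.93 and Neurod6 highest at 2.71. The part of these cells in the vascular values was not tested.

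Both treated groups were also set against Sham. In rt-PA 13 of 35 genes (37.1%) were higher, beside 27.4% of all 13023 genes, and 8 (22.9%) were lower, beside 27.3% of all genes. In rt-PA+Acu 1 of 34 genes was higher, beside 1.7% of all 12775 genes, and 18 were lower, beside 3.4% of all genes. For rt-PA the median log2 fold change was 0.67 for endothelial identity, -2.05 for barrier, 0.02 for pericyte and 0.395 for smooth muscle genes, and 0.0028 for all genes. For rt-PA+Acu it was -0.75, -1.12, -0.62 and -1.07 in the same order, and 0.018 for all genes. Both comparisons used the same Sham libraries, so their values stand side by side and were not correlated. The count of lower genes in rt-PA+Acu was 8 without Sham 2, 10 without Sham 1 and 10 without Sham 3, where all genes that passed numbered 112, 191 and 205 against 651 with all libraries. DESeq2 passed 1386 of all genes and counted 22 vascular genes lower, adding Eng (adjusted p = 0.0124), Cav1 (0.042), Abcc9 (0.0276) and Tagln (0.00504). With 1 edgeR fit over all 12 libraries, in which the 4 groups share 1 estimate of the spread, 12 were lower. Calls lost in that joint fit are given with each gene.

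**Figure D2:**
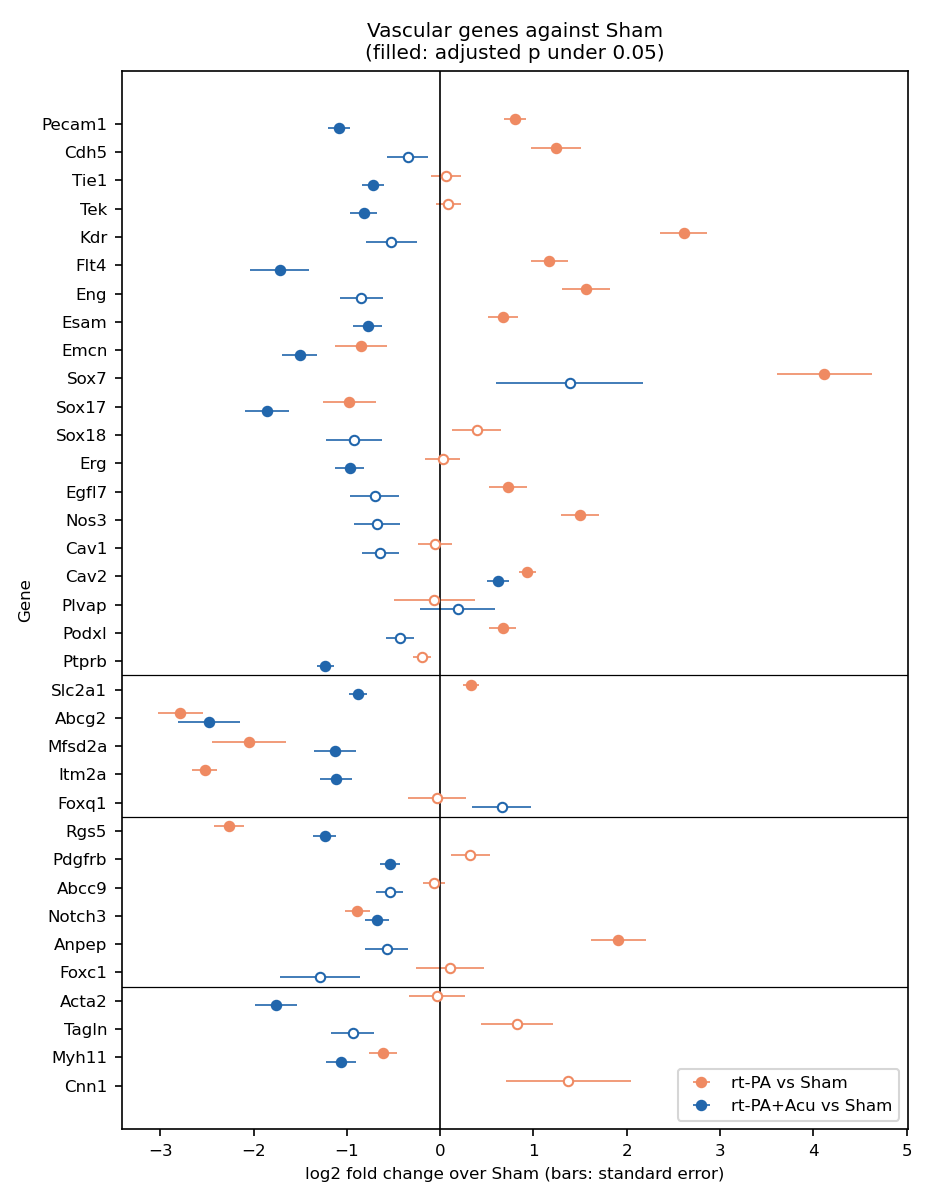
Points give the log2 fold change of each vascular gene (rows) over Sham in rt-PA (orange) and rt-PA+Acu (blue), with bars for the standard error (n = 3 per group) and filled points for adjusted p under 0.05. Lines part the 4 classes in the order of the colour map of all libraries. Endothelial identity genes lie mostly right of 0 in rt-PA and left of 0 in rt-PA+Acu, and Abcg2, Mfsd2a, Itm2a, Rgs5, Notch3 and Myh11 lie left of 0 in both.

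Among the growth factor receptors, Kdr, the main receptor for VEGF, was at 15.9, 20.5 and 12.8 CPM in Sham, 94.6, 121 and 136 CPM in Model, 135, 74.2 and 96.0 CPM in rt-PA, and 10.8, 7.84 and 15.4 CPM in rt-PA+Acu. All 6 Model and rt-PA libraries stood above all 6 Sham and rt-PA+Acu libraries, and those last 2 groups overlapped. Kdr rose by 2.84 ± 0.20 (adjusted p = 2.6e-05) in Model, fell by 3.16 ± 0.31 (adjusted p = 0.00118) from rt-PA to rt-PA+Acu, and stood at -0.53 ± 0.27 (adjusted p = 0.289) against Sham in rt-PA+Acu. These and all changes below are log2 fold changes ± SE from edgeR's quasi-likelihood fit. Flt4, the VEGF-C receptor, was at 5.496, 4.44 and 4.54 CPM in Sham, 8.09, 8.71 and 14.3 CPM in Model, 13.0, 10.5 and 9.43 CPM in rt-PA, and 1.68, 1.74 and 0.973 CPM in rt-PA+Acu. Its 3 rt-PA+Acu libraries lay below all others, and its Model and rt-PA libraries lay above Sham. Flt4 changed by 1.11 ± 0.26 (adjusted p = 0.00781) in Model and by -2.91 ± 0.29 (adjusted p = 0.0012) from rt-PA to rt-PA+Acu, and was below Sham in rt-PA+Acu, at -1.72 ± 0.32 (adjusted p = 0.0253), a call lost without any 1 Sham library (adjusted p = 0.0998, 0.104 and 0.0823 without Sham 1, 2 and 3) or rt-PA+Acu 2 (0.0556).

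The angiopoietin receptors Tek and Tie1 did not pass in Model with all libraries. Tek was at 49.2, 58.2 and 40.4 CPM in Sham, 26.6, 28.0 and 48.0 CPM in Model, 55.4, 50.1 and 53.1 CPM in rt-PA, and 25.8, 27.7 and 30.0 CPM in rt-PA+Acu. Its 3 rt-PA+Acu libraries lay below every Sham and rt-PA library, while Model 3 lay among the Sham libraries and Model 1 and 2 did not. Tek fell by 0.92 ± 0.11 (adjusted p = 0.00198) from rt-PA to rt-PA+Acu, and its Model against Sham value was -0.52 ± 0.23 (adjusted p = 0.0917), or -0.84 (adjusted p = 0.00245) without Model 3, and passed in the joint fit (0.0457). Tie1, its partner receptor, was at 25.7, 26.7 and 24.8 CPM in Sham, 16.5, 17.7 and 36.4 CPM in Model, 33.8, 25.7 and 21.9 CPM in rt-PA, and 15.1, 16.5 and 15.4 CPM in rt-PA+Acu. Every rt-PA+Acu library was below every Sham and rt-PA library. Tie1 fell by 0.79 ± 0.18 (adjusted p = 0.0145) from rt-PA to rt-PA+Acu. Ptprb, a phosphatase that holds Tek signalling down, was at 143, 158 and 157 CPM in Sham, 44.6, 48.0 and 135 CPM in Model, 136, 119 and 148 CPM in rt-PA, and 65.6, 66.8 and 62.3 CPM in rt-PA+Acu. Model 1 and 2 and all rt-PA+Acu libraries were far below every Sham library, whereas Model 3 and the rt-PA libraries came close to Sham. Ptprb was below rt-PA levels after acupuncture, at -1.05 ± 0.11 (adjusted p = 0.00139) and below Sham levels, at -1.23 ± 0.09 (adjusted p = 0.00188), and its Model against Sham value was -0.999 ± 0.38 (adjusted p = 0.053) with Model 3 and -1.71 (adjusted p = 7.02e-06) without it, and passed in the joint fit (0.021). The calls of Tek and Tie1 as lower than Sham in rt-PA+Acu were -0.82 ± 0.15 (adjusted p = 0.024) and -0.72 ± 0.12 (adjusted p = 0.0169), and they were lost without Sham 1 (0.0877 and 0.0676) and Sham 2 (0.104 and 0.0953), for Tie1 also without Sham 3 (0.0611) and in the joint fit (0.135), and for Tek without rt-PA+Acu 2 (0.072).

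Eng, or endoglin, was at 33.9, 48.0 and 33.5 CPM in Sham, 43.7, 62.4 and 71.6 CPM in Model, 161, 105 and 80.1 CPM in rt-PA, and 15.2, 21.4 and 27.4 CPM in rt-PA+Acu. The 3 rt-PA libraries were above all others and the 3 rt-PA+Acu libraries below all others, and Model overlapped Sham. Eng rose by 1.56 ± 0.26 (adjusted p = 0.00152) in rt-PA over Sham and fell by 2.43 ± 0.31 (adjusted p = 0.00212) from rt-PA to rt-PA+Acu. Its Model against Sham value of 0.63 ± 0.20 (adjusted p = 0.0291) did not pass without Sham 1 (0.105), Sham 3 (0.108), Model 2 (0.0815) or Model 3 (0.0714), nor in the joint fit (0.0817). In rt-PA+Acu Eng was at -0.85 ± 0.23 (adjusted p = 0.0786) against Sham, which passed without rt-PA+Acu 3 (0.0304).

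**Figure D3:**
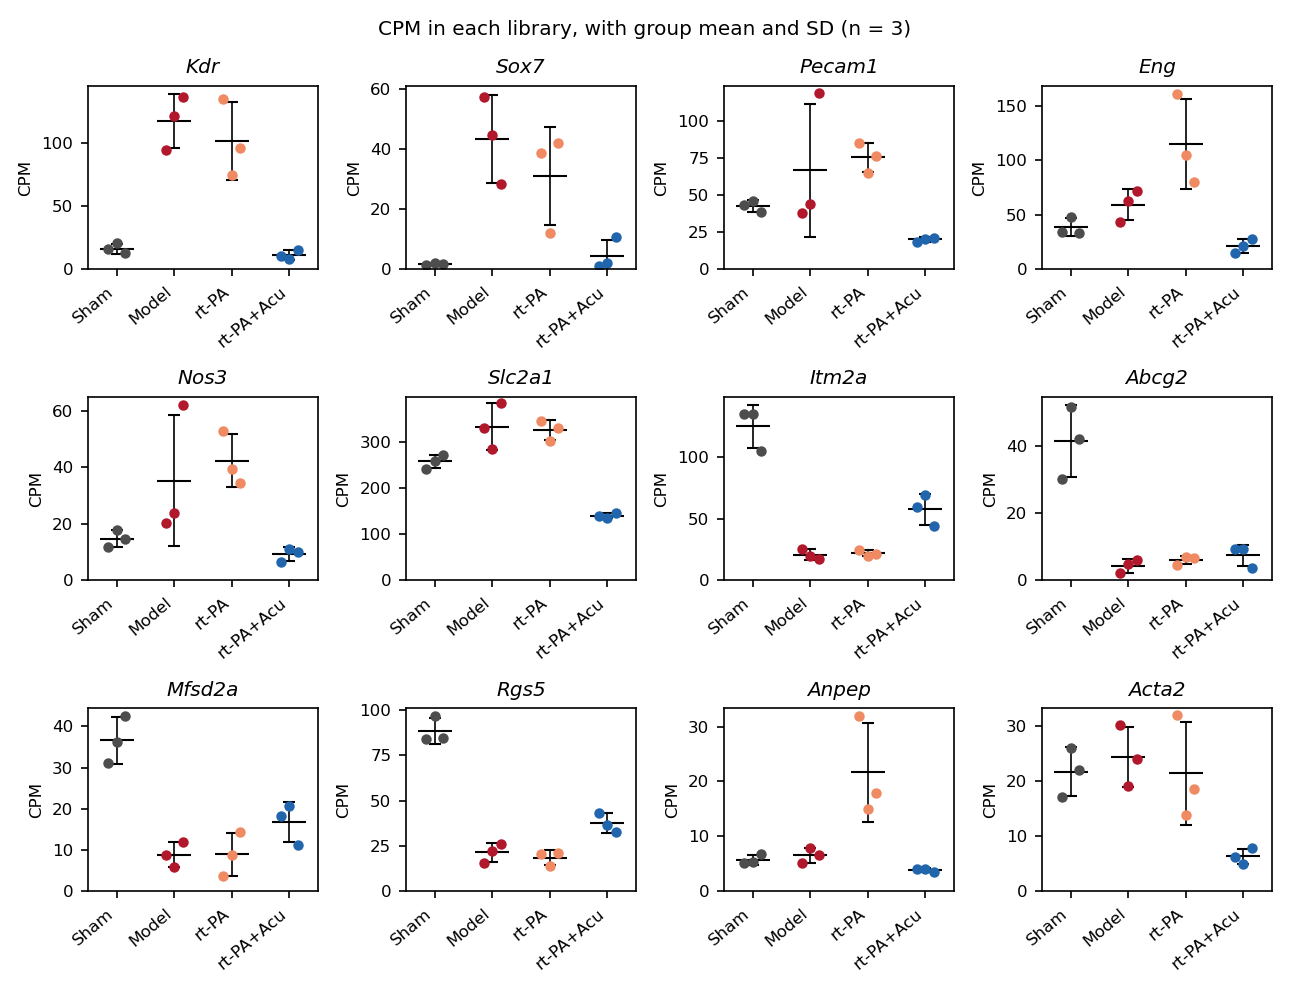
Each panel plots 1 gene's CPM (vertical axis, from 0) in the 3 libraries of each group as points, with the group mean as a horizontal line and the SD as a bar (n = 3). Kdr and Sox7 are high in Model and rt-PA, Itm2a, Abcg2, Mfsd2a and Rgs5 are highest in Sham, and Slc2a1 and Acta2 are lowest in rt-PA+Acu.

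Junction and surface proteins came next. Pecam1, an adhesion protein of endothelial junctions that myeloid cells and platelets also carry, was at 43.6, 46.0 and 38.4 CPM in Sham, 37.9, 43.7 and 118 CPM in Model, 84.8, 64.8 and 76.2 CPM in rt-PA, and 18.5, 20.7 and 21.2 CPM in rt-PA+Acu. All 3 rt-PA+Acu libraries lay below all others and the 3 rt-PA libraries above Sham, while of the Model libraries Model 3 alone lay above Sham. Pecam1 was higher in rt-PA than in Sham by 0.80 ± 0.12 (adjusted p = 0.00101), fell by 1.9 ± 0.14 (adjusted p = 0.00104) from rt-PA to rt-PA+Acu, and ended below Sham at -1.08 ± 0.12 (adjusted p = 0.00403). Neither call against Sham passed in the joint fit (adjusted p = 0.0557 for rt-PA, 0.0878 for rt-PA+Acu). In Model its value was 0.65 ± 0.39 (adjusted p = 0.185) with Model 3 and -0.05 (adjusted p = 0.734) without it. The monocyte marker sum was also above Sham in rt-PA and below it in rt-PA+Acu. In Model the sum was at 214, 171 and 250.3 CPM, against 66.4 to 91.3 CPM in Sham, and Pecam1 was above Sham in Model 3 alone. The Model sum leaned on Cd14 (75.9 to 101 CPM) and Lyz2 (73.8 to 122 CPM). Of the other markers, Ccr2 was at 0.839 to 1.86 CPM in Model and Adgre1 was below Sham (-1.21, adjusted p = 0.00744). The part of monocytes in the Pecam1 values was not tested.

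Cdh5, the cadherin of endothelial adherens junctions, was at 17.5, 29.1 and 17.6 CPM in Sham, 28.2, 28.6 and 41.5 CPM in Model, 69.1, 41.6 and 43.1 CPM in rt-PA, and 19.4, 15.7 and 15.5 CPM in rt-PA+Acu. The rt-PA libraries lay above all Sham and rt-PA+Acu libraries, and those 2 groups overlapped. Cdh5 was higher in rt-PA than in Sham by 1.24 ± 0.26 (adjusted p = 0.00491) and fell by 1.61 ± 0.22 (adjusted p = 0.00296) from rt-PA to rt-PA+Acu, while its Model against Sham value of 0.62 ± 0.24 (adjusted p = 0.0533) passed without Sham 2 (0.012), in DESeq2 (0.0334) and with scaling by library size alone (0.0406). Esam, a junctional immunoglobulin protein, was at 24.0, 23.4 and 26.4 CPM in Sham, 17.2, 24.3 and 52.5 CPM in Model, 48.7, 38.7 and 31.7 CPM in rt-PA, and 11.9, 16.9 and 14.2 CPM in rt-PA+Acu. Its rt-PA+Acu libraries were again the lowest 3 of all 12, and Model 3 was again the highest Model library. Esam was higher in rt-PA than in Sham by 0.67 ± 0.16 (adjusted p = 0.00799), a call lost in the joint fit (0.0918), and below rt-PA levels in rt-PA+Acu, at -1.47 ± 0.20 (adjusted p = 0.00296). Its place below Sham in rt-PA+Acu, -0.78 ± 0.16 (adjusted p = 0.0343), was lost without Sham 1 (0.103), Sham 2 (0.125) or Sham 3 (0.122) and in the joint fit (0.187).

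The sialomucins Podxl and Emcn, which coat the luminal surface, parted in Model. Podxl was at 76.4, 80.4 and 70.0 CPM in Sham, 101, 107 and 152 CPM in Model, 151, 104 and 110.3 CPM in rt-PA, and 46.9, 52.6 and 68.3 CPM in rt-PA+Acu. All Model and rt-PA libraries were above all Sham libraries, and all rt-PA+Acu libraries were below them. Podxl rose by 0.67 ± 0.15 (adjusted p = 0.00643) in Model and fell by 1.12 ± 0.19 (adjusted p = 0.00599) from rt-PA to rt-PA+Acu. In rt-PA+Acu against Sham it was -0.43 ± 0.15 (adjusted p = 0.134), which passed only without rt-PA+Acu 3 among the fits with a library left out. Emcn, a marker of veins and capillaries, was at 11.3, 12.2 and 13.0 CPM in Sham, 6.56, 4.31 and 4.30 CPM in Model, 9.57, 6.74 and 4.20 CPM in rt-PA, and 4.88, 3.57 and 4.34 CPM in rt-PA+Acu. Every stroke library, treated or not, lay below every Sham library. Emcn fell by 1.25 ± 0.22 (adjusted p = 0.00189) in Model and was -1.51 ± 0.19 (adjusted p = 0.00647) against Sham in rt-PA+Acu. Its rt-PA against Sham value of -0.84 ± 0.28 (adjusted p = 0.0327) was lost without Sham 1 (0.0604), Sham 2 (0.0775), Sham 3 (0.0885), rt-PA 2 (0.0611) or rt-PA 3 (0.0583), and with scaling by library size alone (0.0711).

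Sox7, Sox17 and Sox18 are the SoxF transcription factors of endothelial development. Sox7 was at 1.29, 2.22 and 1.75 CPM in Sham, 57.5, 44.7 and 28.3 CPM in Model, 38.8, 12.2 and 42.1 CPM in rt-PA, and 1.01, 2.0 and 10.6 CPM in rt-PA+Acu. The Model and rt-PA libraries were all above the Sham libraries, and rt-PA+Acu 3 stood apart from rt-PA+Acu 1 and 2, which overlapped Sham. Sox7 had the highest fold change of the 35 genes in Model, 4.63 ± 0.33 (adjusted p = 2.73e-05), and in rt-PA over Sham, 4.12 ± 0.51 (adjusted p = 0.000379). It was below rt-PA levels after acupuncture, at -2.74 ± 0.81 (adjusted p = 0.0346), a call lost without rt-PA 1 (0.0911), rt-PA 3 (0.096), rt-PA+Acu 1 (0.0754) or rt-PA+Acu 2 (0.11). Sox17, a factor of arterial endothelium, was at 8.97, 12.9 and 10.7 CPM in Sham, 1.60, 2.45 and 6.77 CPM in Model, 8.04, 4.52 and 4.20 CPM in rt-PA, and 2.78, 3.66 and 2.54 CPM in rt-PA+Acu. It went the other way: every stroke library was below every Sham library. Against Sham, Sox17 was at -1.58 ± 0.46 (adjusted p = 0.0193) in Model, -0.97 ± 0.28 (adjusted p = 0.0201) in rt-PA and -1.86 ± 0.24 (adjusted p = 0.0066) in rt-PA+Acu. The Model call was lost without Sham 2 (0.0677), Sham 3 (0.051) or Model 2 (0.0694), and the rt-PA call without Sham 2 (0.0737), Sham 3 (0.0502), rt-PA 2 (0.0503) or rt-PA 3 (0.0651) and in the joint fit (0.0795).

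Sox18 was at 8.08, 8.65 and 6.64 CPM in Sham, 7.40, 6.0 and 10.8 CPM in Model, 14.7, 7.96 and 8.32 CPM in rt-PA, and 2.78, 5.93 and 3.59 CPM in rt-PA+Acu. Sham, Model and rt-PA overlapped, and the rt-PA+Acu libraries lay below Sham and rt-PA. Sox18 was below rt-PA levels after acupuncture, at -1.34 ± 0.36 (adjusted p = 0.0262), which did not hold without rt-PA 1 (0.0883), rt-PA+Acu 1 (0.079) or rt-PA+Acu 3 (0.0552). In rt-PA+Acu against Sham it did not pass, at -0.93 ± 0.30 (adjusted p = 0.117). Erg, an ETS-family factor that keeps endothelial genes on, was at 17.3, 20.1 and 21.2 CPM in Sham, 22.9, 17.0 and 22.4 CPM in Model, 23.6, 21.9 and 14.9 CPM in rt-PA, and 9.26, 11.1 and 9.51 CPM in rt-PA+Acu. Its other 9 libraries spanned 14.9 to 23.6 CPM, and all rt-PA+Acu libraries fell under that span. Erg was -1.02 ± 0.21 (adjusted p = 0.00986) in rt-PA+Acu against rt-PA and -0.97 ± 0.15 (adjusted p = 0.0144) against Sham, the latter lost without Sham 2 (0.0843) or Sham 3 (0.0653). Its Model against Sham value was 0.10 ± 0.16 (adjusted p = 0.626).

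Nos3, the endothelial nitric oxide synthase, was at 11.9, 17.8 and 14.8 CPM in Sham, 20.2, 23.7 and 62.1 CPM in Model, 53.0, 39.6 and 34.6 CPM in rt-PA, and 6.48, 11.2 and 9.95 CPM in rt-PA+Acu. Those of rt-PA+Acu were the lowest 3 of the 12, and Model 3 was the highest of all. Nos3 was higher in rt-PA than in Sham by 1.501 ± 0.20 (adjusted p = 0.000558) and fell by 2.20 ± 0.25 (adjusted p = 0.00159) from rt-PA to rt-PA+Acu. In rt-PA+Acu against Sham it did not pass, at -0.68 ± 0.24 (adjusted p = 0.146). Its Model against Sham value of 1.26 ± 0.41 (adjusted p = 0.0285) was 0.58 (adjusted p = 0.0295) without Model 3 and was lost without Sham 1 (0.0965), Sham 2 (0.0541) or Sham 3 (0.0808). Egfl7, a secreted protein of growing vessels, was at 14.5, 18.2 and 12.1 CPM in Sham, 23.0, 22.2 and 32.5 CPM in Model, 29.9, 20.1 and 25.2 CPM in rt-PA, and 6.397, 12.4 and 8.83 CPM in rt-PA+Acu. Model and rt-PA lay above Sham, and rt-PA+Acu overlapped Sham from below. Egfl7 rose by 0.80 ± 0.21 (adjusted p = 0.0112) in Model and was below rt-PA levels after acupuncture, at -1.45 ± 0.27 (adjusted p = 0.007), and its rt-PA over Sham value of 0.73 ± 0.20 (adjusted p = 0.0159) was lost without Sham 1 (0.0524) or Sham 3 (0.0568).

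The caveolins Cav1 and Cav2, which build the coat of caveolae and are also made by astrocytes and smooth muscle, moved in opposite directions in Model. Cav1 was at 50.0, 58.6 and 51.5 CPM in Sham, 24.3, 31.2 and 38.7 CPM in Model, 68.1, 47.5 and 39.99 CPM in rt-PA, and 46.8, 28.6 and 27.4 CPM in rt-PA+Acu. Its Model libraries were all below Sham, and rt-PA overlapped Sham. Cav1 fell by 0.76 ± 0.16 (adjusted p = 0.00485) in Model, and its rt-PA+Acu values of -0.60 ± 0.26 (adjusted p = 0.116) against rt-PA and -0.64 ± 0.20 (adjusted p = 0.107) against Sham passed without rt-PA+Acu 1 (0.04 and 0.0122). Cav2 was at 28.0, 28.4 and 26.2 CPM in Sham, 34.6, 39.0 and 65.4 CPM in Model, 49.6, 55.3 and 54.7 CPM in rt-PA, and 47.1, 37.3 and 42.1 CPM in rt-PA+Acu. All 9 stroke libraries were above all 3 Sham libraries. Cav2 rose by 0.76 ± 0.22 (adjusted p = 0.0194) in Model and 0.93 ± 0.09 (adjusted p = 0.000142) in rt-PA, and was the 1 gene higher than Sham in rt-PA+Acu (0.61 ± 0.12 (adjusted p = 0.0284)). The Model and rt-PA+Acu calls were lost without Sham 1 (0.0562 and 0.102), Sham 2 (0.056 and 0.124) or Sham 3 (0.0686 and 0.109), and the rt-PA+Acu call in the joint fit (0.0918). Plvap, which forms the diaphragms of leaky vessels and is low in barrier endothelium, ranged over 0.919 to 1.83 CPM in Sham, 0.382 to 1.98 CPM in Model, 0.762 to 1.65 CPM in rt-PA, and 1.22 to 2.02 CPM in rt-PA+Acu, and passed in none of the 5 comparisons with all libraries.

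Of the 5 barrier genes 4 fell in Model. Abcg2, the efflux pump of the luminal membrane, was at 30.3, 51.7 and 42.1 CPM in Sham, 2.14, 4.73 and 6.11 CPM in Model, 4.64, 6.88 and 6.63 CPM in rt-PA, and 9.26, 9.33 and 3.82 CPM in rt-PA+Acu. All 9 stroke libraries were below 10 CPM and all Sham libraries above 30. Abcg2 was below Sham, at -3.25 ± 0.35 (adjusted p = 0.000164) in Model, -2.79 ± 0.24 (adjusted p = 7.26e-05) in rt-PA and -2.48 ± 0.33 (adjusted p = 0.00856) in rt-PA+Acu, the lowest value of the vascular genes in each, and stood at 0.30 ± 0.36 (adjusted p = 0.553) in rt-PA+Acu against rt-PA. Mfsd2a, the carrier of DHA-containing lipids that holds back transcytosis, was at 31.1, 36.2 and 42.5 CPM in Sham, 8.78, 5.83 and 11.9 CPM in Model, 3.74, 8.82 and 14.3 CPM in rt-PA, and 18.4, 20.7 and 11.3 CPM in rt-PA+Acu. Every stroke library was below every Sham library, and the 3 stroke groups overlapped. Mfsd2a was below Sham, at -2.04 ± 0.25 (adjusted p = 0.000289) in Model, -2.05 ± 0.40 (adjusted p = 0.00325) in rt-PA and -1.13 ± 0.22 (adjusted p = 0.0316) in rt-PA+Acu, the last lost without Sham 1 (0.0734), Sham 2 (0.125) or Sham 3 (0.109) and in the joint fit (0.112).

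Itm2a was at 135, 135 and 105 CPM in Sham, 25.6, 19.6 and 17.1 CPM in Model, 24.7, 19.9 and 21.1 CPM in rt-PA, and 59.8, 69.0 and 44.2 CPM in rt-PA+Acu. Those of rt-PA+Acu stood between the others, above all 6 Model and rt-PA libraries and below all Sham libraries. Itm2a fell by 2.58 ± 0.17 (adjusted p = 2.32e-05) in Model, rose by 1.39 ± 0.18 (adjusted p = 0.0025) from rt-PA to rt-PA+Acu, and remained -1.12 ± 0.18 (adjusted p = 0.0143) against Sham, a call lost without Sham 1 (0.0663) or Sham 2 (0.0816). Foxq1, a forkhead factor enriched in brain endothelium, was at 2.18, 1.91 and 2.27 CPM in Sham, 0.992, 1.01 and 0.496 CPM in Model, 2.77, 1.86 and 1.62 CPM in rt-PA, and 2.36, 3.40 and 4.27 CPM in rt-PA+Acu. Its Model libraries were below all others. Foxq1 was below Sham levels in Model, at -1.32 ± 0.39 (adjusted p = 0.0208), a call lost without Sham 1 (0.0567) or Sham 3 (0.064), and its rt-PA against Model value was 1.32 ± 0.42 (adjusted p = 0.388).

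Slc2a1, the glucose carrier GLUT1 of barrier endothelium that astrocytes also make, was at 243, 259 and 272 CPM in Sham, 331, 284 and 385 CPM in Model, 346, 303 and 332 CPM in rt-PA, and 140.0, 135 and 147 CPM in rt-PA+Acu. Unlike the other barrier genes it was above Sham in all Model and rt-PA libraries, and all rt-PA+Acu libraries were below all others. Slc2a1 rose by 0.38 ± 0.12 (adjusted p = 0.024) in Model, fell by 1.22 ± 0.11 (adjusted p = 0.00104) from rt-PA to rt-PA+Acu, and was -0.88 ± 0.10 (adjusted p = 0.0039) against Sham in rt-PA+Acu. The Model call was lost without Sham 1 (0.0917) or Sham 2 (0.0715), and the rt-PA over Sham call (0.33 ± 0.09 (adjusted p = 0.0138)) without Sham 1 (0.0611).

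Promoters of Kdr, Abcg2 and Itm2a, chosen after their values were seen as a gene that rose, a gene that fell in every stroke group and a gene that came partway back, are printed from 250 bases before to 50 bases after the RefSeq start site in build GRCr8, 5′ to 3′ along the gene. This is a later build than the one behind the counts. Capitals mark GGAAG, a form of the GGAA core of ETS sites such as those Erg binds, or its reverse complement CTTCC. Other forms of that core are not marked or counted. Matches of GGAAG numbered 1 in Kdr at chr14:32571813-32572112 (plus strand), 1 in Abcg2 at chr4:89075224-89075523 (plus strand) and 5 in Itm2a at chrX:76565095-76565394 (minus strand).
Kdr: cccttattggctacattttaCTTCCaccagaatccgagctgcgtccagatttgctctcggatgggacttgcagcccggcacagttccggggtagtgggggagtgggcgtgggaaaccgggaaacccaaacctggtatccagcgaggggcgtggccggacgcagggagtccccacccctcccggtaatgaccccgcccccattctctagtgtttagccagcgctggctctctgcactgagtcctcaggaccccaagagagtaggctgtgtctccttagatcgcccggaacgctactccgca
Abcg2: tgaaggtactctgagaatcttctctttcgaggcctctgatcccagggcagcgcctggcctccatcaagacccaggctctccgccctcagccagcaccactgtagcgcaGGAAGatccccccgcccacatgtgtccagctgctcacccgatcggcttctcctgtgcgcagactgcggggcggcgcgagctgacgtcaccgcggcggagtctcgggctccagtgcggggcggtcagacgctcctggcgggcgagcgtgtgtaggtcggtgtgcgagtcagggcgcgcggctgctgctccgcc
Itm2a: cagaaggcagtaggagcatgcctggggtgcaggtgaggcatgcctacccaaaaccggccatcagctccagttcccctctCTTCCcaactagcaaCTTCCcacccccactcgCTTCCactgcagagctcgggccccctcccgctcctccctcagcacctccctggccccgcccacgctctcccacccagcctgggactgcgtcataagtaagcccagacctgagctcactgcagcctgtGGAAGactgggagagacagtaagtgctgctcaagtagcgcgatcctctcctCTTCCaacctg
Windows were held for 24 of the 36 genes. GGAAG on either strand was in 20 of their 26 windows (76.9%) and in 70.1% of 33469 windows of all genes, and ACGTG, the core of hypoxia response elements, was in 5 of 26 (19.2%) and 19.3%. A match describes the letters of the window only.

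Among pericyte genes, Rgs5 was at 84.1, 96.9 and 84.6 CPM in Sham, 15.8, 22.2 and 26.3 CPM in Model, 20.6, 13.9 and 21.4 CPM in rt-PA, and 43.4, 36.5 and 32.8 CPM in rt-PA+Acu. As with Itm2a, the rt-PA+Acu libraries lay between Sham and the other stroke libraries without overlap. Rgs5 fell by 2.04 ± 0.17 (adjusted p = 5.64e-05) in Model, rose by 1.01 ± 0.20 (adjusted p = 0.00848) from rt-PA to rt-PA+Acu, and was still -1.24 ± 0.12 (adjusted p = 0.00314) against Sham. Notch3, a receptor that mural cells need to mature, was at 30.2, 28.2 and 26.2 CPM in Sham, 9.31, 13.7 and 16.9 CPM in Model, 16.8, 13.4 and 15.9 CPM in rt-PA, and 17.8, 19.2 and 16.02 CPM in rt-PA+Acu. All 9 stroke libraries were below all Sham libraries. Notch3 was below Sham, at -1.08 ± 0.21 (adjusted p = 0.00273) in Model, -0.89 ± 0.13 (adjusted p = 0.000888) in rt-PA and -0.68 ± 0.13 (adjusted p = 0.0267) in rt-PA+Acu, the last lost without Sham 1 (0.102), Sham 2 (0.124), Sham 3 (0.0704) or rt-PA+Acu 2 (0.0515) and in the joint fit (0.0591).

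Pdgfrb, the PDGF receptor of pericytes and fibroblasts, was at 48.3, 56.9 and 48.4 CPM in Sham, 31.1, 39.4 and 48.8 CPM in Model, 80.5, 43.5 and 70.4 CPM in rt-PA, and 36.3, 35.8 and 33.6 CPM in rt-PA+Acu. Those of rt-PA+Acu fell within the Model span and below Sham and rt-PA. Pdgfrb was below rt-PA levels after acupuncture, at -0.88 ± 0.22 (adjusted p = 0.0182), lost without rt-PA 1 (0.0594), rt-PA 3 (0.061), rt-PA+Acu 1 (0.051) or rt-PA+Acu 2 (0.06), and below Sham, at -0.54 ± 0.11 (adjusted p = 0.0299), lost without Sham 1 (0.087), Sham 2 (0.145), Sham 3 (0.086) or rt-PA+Acu 2 (0.0763) and in the joint fit (0.149). Against Sham it passed as lower in Model without Model 3 (0.0107) and as higher in rt-PA without rt-PA 2 (0.00397). The 9 fibroblast markers summed to 213 to 368 CPM in Sham, 63.6 to 158 CPM in Model, 144 to 477 CPM in rt-PA and 169.7 to 325 CPM in rt-PA+Acu, and were lowest in rt-PA 2 among the rt-PA libraries, as Pdgfrb was. Of this sum Pdgfra alone held 151 to 193 CPM in Sham and 28.7 to 57.6 CPM in Model, so the sum leans on 1 gene. Col1a1, Col1a2, Col3a1, Dcn and Lum did not pass in Model against Sham (adjusted p from 0.0744 to 0.812). The part of fibroblasts in the Pdgfrb values was not tested.

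Abcc9, the sulfonylurea receptor subunit of the pericyte potassium channel, was at 40.8, 31.9 and 36.1 CPM in Sham, 36.6, 26.6 and 27.8 CPM in Model, 37.6, 35.1 and 32.1 CPM in rt-PA, and 26.6, 27.0 and 21.2 CPM in rt-PA+Acu. Its rt-PA+Acu libraries lay below every Sham and rt-PA library. The fall from rt-PA to rt-PA+Acu, -0.49 ± 0.14 (adjusted p = 0.0307), was lost when any 1 of the 6 libraries was left out, with adjusted p from 0.0515 (without rt-PA+Acu 3) through 0.0561, 0.0611, 0.0628 and 0.0664 (without rt-PA 3, rt-PA+Acu 1, rt-PA+Acu 2 and rt-PA 2) to 0.104 (without rt-PA 1). It also passed as lower in Model than in Sham without Model 1 (0.0429). In rt-PA+Acu against Sham the edgeR value of Abcc9 was -0.54 ± 0.14 (adjusted p = 0.0706). Foxc1, a forkhead factor of mural cells and meninges, was at 1.94, 2.68 and 4.80 CPM in Sham, 0.687, 2.03 and 3.55 CPM in Model, 4.16, 2.94 and 3.09 CPM in rt-PA, and 0.926, 1.48 and 1.42 CPM in rt-PA+Acu. Those of rt-PA+Acu were below Sham and rt-PA, and Sham, Model and rt-PA overlapped. Foxc1 fell by 1.41 ± 0.34 (adjusted p = 0.0167) from rt-PA to rt-PA+Acu, lost without rt-PA 1 (0.0664) or rt-PA+Acu 1 (0.0572). In rt-PA+Acu against Sham it did not pass, at -1.29 ± 0.43 (adjusted p = 0.124).

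Anpep, or aminopeptidase N, was at 5.09, 5.28 and 6.73 CPM in Sham, 5.19, 7.95 and 6.53 CPM in Model, 32.0, 15.1 and 18.0 CPM in rt-PA, and 4.04, 4.01 and 3.44 CPM in rt-PA+Acu. The 3 rt-PA libraries were above all others and the 3 rt-PA+Acu libraries below all others. Anpep was higher in rt-PA than in Sham by 1.91 ± 0.30 (adjusted p = 0.00115) and fell by 2.5 ± 0.31 (adjusted p = 0.0021) from rt-PA to rt-PA+Acu. Its Model against Sham value was 0.21 ± 0.24 (adjusted p = 0.482). In rt-PA+Acu against Sham it did not pass, at -0.57 ± 0.23 (adjusted p = 0.186). Myeloid cells also carry this enzyme: rt-PA 1 held the highest Anpep level, monocyte marker sum and neutrophil marker sum of the 12 libraries. Between rt-PA 2 and 3, Anpep was higher in rt-PA 3. The monocyte sum (275 and 249.6 CPM) and neutrophil sum (34.5 and 14.7 CPM) were higher in rt-PA 2. In Model the monocyte sums, which leaned on Cd14 and Lyz2, were all above Sham, and Anpep overlapped Sham. The part of myeloid cells in the Anpep values was not tested.

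Of the 4 smooth muscle genes 2 fell in Model. Acta2, the smooth muscle actin, was at 17.2, 25.9 and 22.1 CPM in Sham, 30.1, 19.2 and 24.0 CPM in Model, 32.0, 13.9 and 18.6 CPM in rt-PA, and 6.31, 5.05 and 7.78 CPM in rt-PA+Acu. Sham, Model and rt-PA overlapped, and all rt-PA+Acu libraries were below all others. Acta2 was below rt-PA levels after acupuncture, at -1.75 ± 0.33 (adjusted p = 0.00796) and below Sham levels, at -1.76 ± 0.22 (adjusted p = 0.00646). Tagln, an actin-binding protein that fibroblasts and other contractile cells also make, was at 24.0, 30.5 and 23.6 CPM in Sham, 12.9, 11.8 and 16.9 CPM in Model, 37.4, 78.6 and 23.8 CPM in rt-PA, and 13.1, 9.50 and 18.0 CPM in rt-PA+Acu. Model was below Sham, and rt-PA 2 was far above the rest. Tagln fell by 0.90 ± 0.18 (adjusted p = 0.00348) in Model, a call lost in the joint fit (0.0577), and was below rt-PA levels after acupuncture, at -1.78 ± 0.44 (adjusted p = 0.0191), lost without rt-PA+Acu 1 (0.0602) or rt-PA+Acu 2 (0.0715). Against Sham, Tagln passed as higher in rt-PA without rt-PA 3 (0.0183) and in DESeq2 (0.0401), and as lower in rt-PA+Acu without rt-PA+Acu 3 (0.0153).

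Myh11, the smooth muscle myosin, was at 33.1, 41.0 and 40.7 CPM in Sham, 15.3, 17.8 and 28.8 CPM in Model, 28.8, 26.5 and 20.6 CPM in rt-PA, and 16.4, 16.5 and 21.8 CPM in rt-PA+Acu. Every stroke library was below every Sham library. Myh11 was below Sham, at -0.88 ± 0.23 (adjusted p = 0.011) in Model, -0.61 ± 0.15 (adjusted p = 0.00977) in rt-PA and -1.07 ± 0.16 (adjusted p = 0.0122) in rt-PA+Acu, the last lost without Sham 2 (0.0725) or Sham 3 (0.0531). Its rt-PA+Acu against rt-PA value of -0.47 ± 0.19 (adjusted p = 0.0857) passed without rt-PA+Acu 3 (0.0332). Cnn1, or calponin, ranged over 0.404 to 1.22 CPM in Sham, 0.165 to 5.42 CPM in Model, 0.737 to 3.30 CPM in rt-PA, and 0.253 to 0.784 CPM in rt-PA+Acu, close to the level of 3 counts in several libraries. It was tested in 3 comparisons and passed in none of them with all libraries, and in Model it was 1.99 ± 0.95 (adjusted p = 0.108) over Sham, or 2.54 (adjusted p = 0.00531) without Model 3.

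Ratios of counts of 2 genes within a library do not depend on its depth or scaling. 4 such ratios were formed after the values were seen and are given as a description, with no test. The ratio of Kdr to Pecam1 was 0.332 to 0.446 in Sham, 1.15 to 2.78 in Model, 1.15 to 1.59 in rt-PA and 0.380 to 0.728 in rt-PA+Acu. Model and rt-PA lay above Sham and rt-PA+Acu, and the latter 2 overlapped. Itm2a to Pecam1 was 2.72 to 3.10 in Sham, 0.144 to 0.674 in Model, 0.277 to 0.307 in rt-PA and 2.08 to 3.34 in rt-PA+Acu. Here rt-PA+Acu overlapped Sham, with both genes below Sham levels (log2 fold changes of -1.12 and -1.08). Rgs5 to Pdgfrb was 1.70 to 1.75 in Sham, 0.507 to 0.562 in Model, 0.256 to 0.320 in rt-PA and 0.976 to 1.19 in rt-PA+Acu, with no overlap between any 2 groups. Sox7 to Sox17 was 0.144 to 0.173 in Sham, 4.18 to 35.9 in Model, 2.698 to 10.04 in rt-PA and 0.364 to 4.18 in rt-PA+Acu. Every stroke library exceeded Sham, and rt-PA+Acu 3 reached into the rt-PA span.

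**Figure D4:**
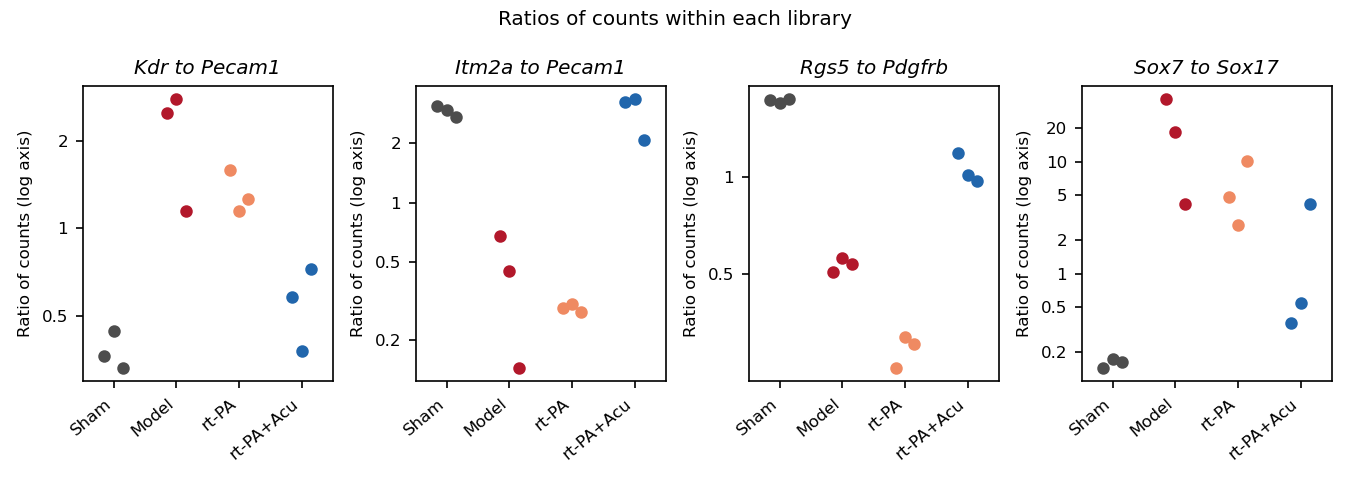
Points give the ratio of counts of a pair of genes within each library (log vertical axis) for the 3 libraries of each group. Itm2a to Pecam1 overlaps between Sham and rt-PA+Acu, and Rgs5 to Pdgfrb overlaps between no groups.

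Wider lists of each class gave the setting, beside 27.3% of all genes higher and 26.6% lower in Model and 17% higher and 17.7% lower in rt-PA+Acu against rt-PA. Of 18 other endothelial genes tested, 3 rose and 6 fell in Model against Sham, from Ecscr, an endothelial membrane protein (2.84), to S1pr1, the sphingosine-1-phosphate receptor (-1.83). Their median in Model was -0.17. From rt-PA to rt-PA+Acu 10 of these 18 fell and 2 rose, from Cd34, a sialomucin (1.22), to Ecscr (-4.22). The share that rose in Model, 16.7%, was below that of all genes and the share that fell, 33.3%, somewhat above it, while 55.6% fell from rt-PA to rt-PA+Acu. Of 13 other barrier transporters, 4 were higher and 6 lower in Model, from the amino acid carrier Slc7a5 (1.00) to the organic anion carrier Slc22a8 (-4.33), and in rt-PA+Acu against rt-PA 4 rose, led by Slc22a8 (2.60), and 3 fell. The share higher in Model, 30.8%, was near that of all genes, and 46.2% were lower. Meningeal fibroblasts also make Slc22a8. Of 9 fibroblast markers tested 4 were lower and 0 higher in Model, with a median of -1.25 and Slc22a6 lowest (-5.48). These 4 were Slc6a13, Slc22a6, Pdgfra and Igf2, while the collagen genes, Dcn and Lum did not pass in Model. In rt-PA+Acu against rt-PA their median was -0.67: Slc6a13 (4.95) and Slc22a6 (3.51) rose and Dcn (-1.94) fell, while Col3a1 (-1.66), Col1a2 (-1.01), Lum (-0.67), Col1a1 (-0.67), Igf2 (-0.26) and Pdgfra (0.28) did not pass. Their part in the Slc22a8 values was not tested. Of 11 regulators of the barrier programme, mostly of Wnt signalling, 1 was higher in Model (Tspan12, 1.06) and 5 were lower, with the Wnt target Axin2 lowest (-1.59). From rt-PA to rt-PA+Acu 1 of the 11 rose (Axin2, 1.18) and 1 fell (Tspan12, -0.79).

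Other mural genes were mixed. Of 10 other pericyte genes 2 were higher and 4 lower in Model, from Ifitm1 (2.7), an interferon-induced protein that many cells make, to the pericyte ATPase Atp13a5 (-2.88). In rt-PA+Acu against rt-PA 2 of the 10 rose, with vitronectin (Vtn) highest at 1.97, and 2 fell, with Ifitm1 lowest at -2.32. Shares of 20% in each of these directions and of 20% higher in Model were near or below those of all genes. Of 9 other smooth muscle genes tested, 4 were higher and 3 lower in Model, from Mustn1 (2.93) to the leiomodin Lmod1 (-3.62). In rt-PA+Acu against rt-PA 1 of the 9 rose (Lmod1, 1.34) and 4 fell, with Mustn1 lowest (-2.24). Values in parentheses in the account of these lists are log2 fold changes from edgeR's quasi-likelihood fit.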

How the data were processed

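RNA-seq of cerebral cortex gave 12 libraries, 3 per group. Per the labels, mRNA was purified with poly(A) beads and made into dUTP-stranded libraries with molecular identifiers, and read as 150-base pairs. The submitters' processing notes name build mRatBN7.2 and STAR 2.7.10a, Salmon 1.9.0 and featureCounts 2.0.1. Which of these gave the counts, and whether identifiers were collapsed, was not given in the sources used here. The authors deposited whole-number counts per gene symbol for 17268 genes, with no normalization.

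Each comparison was fitted on its 6 libraries in edgeR 4.0.16 (R 4.3.3) with TMM factors, filterByExpr and the quasi-likelihood test, and p-values were adjusted over all genes tested by Benjamini-Hochberg. SE is the absolute log2 fold change over the square root of F. All 35 genes passed the low-count filter except Cnn1 in the comparisons with rt-PA+Acu. DESeq2 1.42.0, other scalings and filters, 1 fit over all 12 libraries, a replicate block and leaving out each library were alternatives. On simulated counts with 200 changed genes, 89 to 97% of 4-fold and 60 to 74% of 2-fold changes were recovered, by comparison. The changed genes were drawn above a minimum mean count, so these rates do not cover genes with few counts. They were also a smaller share of genes than passed in most comparisons of the data. The level of 3 counts, given as the floor of each library, covers counting error only. Promoter windows were RefSeq's for GRCr8. The genes, classes and lists were chosen with earlier results of these data known. Each gene in the 4 classes was described, with all libraries where it passed in Model or rt-PA against Sham or in rt-PA+Acu against rt-PA, and of each wider list the highest and lowest genes of 2 comparisons.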

Additional observations from a re-analysis of the deposited data

How the results depend on the processing

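Counts of vascular genes that passed were recomputed under 7 other fits and with each library left out. In Model against Sham the count of higher genes ranged from 5 to 9 with 1 library left out. In rt-PA against Model the count of higher genes was 3 with DESeq2 and 0 to 1 with 1 library left out. In rt-PA+Acu against Sham the count of higher genes was 0 with 1 fit over all 12 libraries, 0 with the replicate block and 0 to 1 with 1 library left out. The count of lower genes there was 12 with 1 fit over all 12 libraries, 11 with the replicate block, 22 with DESeq2 and 8 to 21 with 1 library left out. The cause was not tested. Of 2240 recomputed values of single genes, 106 no longer passed, 33 newly passed, none reversed among called values, and 62 changed sign without passing under either fit. Scaling by library size alone moved the median of all genes in rt-PA against Sham to 0.15 and cost the call of Emcn. Same-numbered libraries deviated together with correlations from -0.12 to 0.15, and different-numbered ones from -0.20 to 0.23. In Model against Sham the same-numbered correlations were 0.05 to 0.11 and the different-numbered ones -0.08 to 0.02. Such correlations cannot settle whether the numbers pair the rats. The replicate block otherwise lost Sox18 and Tagln and added Cav1 in rt-PA+Acu against rt-PA, and added Ptprb in Model against Sham. With 3 libraries per group and simulated 2-fold changes of better-counted genes recovered at 60 to 74%, smaller changes could go undetected. So could changes of genes near 3 counts, such as Cnn1 and Plvap.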
